A study of Mus musculus with 27 samples.

Results

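The enzymes that write and remove DNA methylation were examined as a family of 8 genes, taken by name: the writers Dnmt1, Dnmt3a and Dnmt3b with their cofactors Uhrf1 and Dnmt3l, and the erasers Tet1, Tet2 and Tet3. All 8 were found among the 23279 genes listed. The RNA-seq libraries came from mouse embryonic tissue and from limb bud-like mesenchyme grown from embryonic stem (ES) cells. Of 27 libraries in 9 groups, 26 were used. Embryonic tissue was from Slc:ICR mice with no further genotype given: forelimb buds (FLB) and hindlimb buds (HLB) at an early stage, labelled E10.0 for both limbs, and at E10.5, and the branchial arch (BA), heart (cardiac, Ca) and tail bud (TB) at E10.5. The study's figure legends give an earlier stage for the early FLB than for the early HLB, so limb type and stage may not be fully separated at the early stage. These tissues were cut from embryos without sorting and hold blood, vessels and surface ectoderm beside mesenchyme. The in vitro groups, ES–FLB and ES–HLB, were made from 1 ES cell line, EB5 Hand2::GFP +/-, which was kept in LIF and 2i before differentiation. Their aggregates received BMP4 and Matrigel, then retinoic acid (ES–FLB) or a retinoic acid antagonist (ES–HLB), and later LDN193189 and Wnt3. By the study's methods, the later medium of both groups also held hydrocortisone and methylcellulose. Hand2::GFP-positive mesenchyme was sorted from pooled organoids on day 9, so an ES–LB library holds cells of 1 reporter gate while an embryonic library holds a whole bud. Each group had 3 libraries, except the E10.5 HLB, which had 2 here because the library labelled replicate 2 was listed at 0 on several chromosomes.

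DNA methylation is copied after each round of DNA replication by DNMT1, which UHRF1 brings to hemimethylated CpG sites. New methylation is laid down by DNMT3A and DNMT3B, and DNMT3L, which has no catalytic activity of its own, stimulates them and is known from germ cells and early embryos. The TET enzymes oxidise 5-methylcytosine, after which the mark is lost with replication or cut out by base excision repair. Dnmt3b is the main de novo enzyme of the early post-implantation embryo and Dnmt3a that of later tissues, and Tet1 and Tet2 are the TET genes of naive ES cells.

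The upstream DNA of the writers is shown because their RNA levels moved in opposite directions. RefSeq gave 15 transcript starts for the 8 genes (GRCm38.p6), and the 250 bases before each start were searched on both strands for E2F-type letters (TTTCCCGC, TTTGGCGC, TTTCGCGC or TTTGCCGC), GC boxes (GGGCGG) and the octamer ATGCAAAT. Lines below run 5′ to 3′ on the gene's own strand, with E2F-type letters and GC boxes in capitals. Windows may overlap exons of another transcript of the same gene.
Dnmt1, minus strand, chr9:20952624-20952873: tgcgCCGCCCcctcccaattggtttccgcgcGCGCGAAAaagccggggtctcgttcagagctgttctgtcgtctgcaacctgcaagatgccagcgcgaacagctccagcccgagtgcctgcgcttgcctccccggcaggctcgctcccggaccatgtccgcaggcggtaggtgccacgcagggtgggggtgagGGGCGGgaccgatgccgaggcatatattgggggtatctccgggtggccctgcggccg
Uhrf1, plus strand, chr17:56304063-56304312: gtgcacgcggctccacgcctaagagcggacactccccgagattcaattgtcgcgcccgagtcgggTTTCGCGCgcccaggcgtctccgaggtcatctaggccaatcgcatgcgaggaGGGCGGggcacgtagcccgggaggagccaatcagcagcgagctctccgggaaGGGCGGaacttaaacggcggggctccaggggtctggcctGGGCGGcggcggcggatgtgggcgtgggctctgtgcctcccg
Dnmt3a, plus strand, chr12:3806730-3806979: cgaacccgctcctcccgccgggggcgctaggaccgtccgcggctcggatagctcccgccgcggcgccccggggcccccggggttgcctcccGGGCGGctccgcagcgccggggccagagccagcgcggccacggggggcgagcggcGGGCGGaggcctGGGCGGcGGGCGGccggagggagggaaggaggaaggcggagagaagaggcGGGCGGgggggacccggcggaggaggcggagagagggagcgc
Dnmt3b, plus strand, chr2:153649199-153649448: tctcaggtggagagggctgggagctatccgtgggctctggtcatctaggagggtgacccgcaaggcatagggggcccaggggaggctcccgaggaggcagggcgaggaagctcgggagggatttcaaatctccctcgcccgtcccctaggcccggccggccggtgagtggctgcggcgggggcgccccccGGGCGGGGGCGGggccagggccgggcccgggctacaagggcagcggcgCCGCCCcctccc
Dnmt3l, plus strand, chr10:78042037-78042286: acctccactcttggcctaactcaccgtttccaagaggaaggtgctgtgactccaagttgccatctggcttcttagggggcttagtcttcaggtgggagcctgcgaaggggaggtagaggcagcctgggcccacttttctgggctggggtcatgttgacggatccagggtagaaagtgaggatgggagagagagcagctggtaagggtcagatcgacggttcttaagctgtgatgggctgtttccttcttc
E2F-type letters, the sequence class bound by factors of the G1-to-S transition, were present in 2 of the 15 windows, the Dnmt1 and Uhrf1 windows printed. They lay at -219 and -185, each counted back from the transcript start at the 3′ end of its own window. Both windows lie inside their genes, downstream of other starts of the same gene, whose windows held no such letters. Of 32851 RefSeq windows of the same length, 1.86% held them. GC boxes, which Sp-family factors bind, were found 2 times in the Dnmt1 window, 3 times in the Uhrf1 window, 5 times in the Dnmt3a window and 3 times in the Dnmt3b window, against 32.7% of all windows with at least 1, and GC boxes could overlap each other. The printed Dnmt3l window held none, but an unprinted window of Dnmt3l, before its start at chr10:78049842, held 2. The printed Dnmt3l window had 5 CpG. The other printed windows had 26 for Dnmt1, 30 for Uhrf1, 38 for Dnmt3a and 21 for Dnmt3b, and the median over all windows was 6. The octamer was in 0 of the 15 windows and in 1.60% of all windows. The Tet2 window, which is not printed, had 51 CpG, a higher count than 99.9% of windows. A match of letters is a description of this DNA and not a binding site.

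Values are counts per 1000000 reads on genes (CPM), scaled between libraries by a trimmed mean. Libraries held about 5543755 to 22142227 reads on genes, as worked out from the worth of 1 read in each, and 3 reads were worth 0.135 to 0.541 CPM. The early limb buds were sequenced to greater depth (19642217 to 22142227 reads) than the E10.5 limb buds (5543755 to 5908846 reads), so depth moved with stage. Replicates correlated at r = 0.988 to 0.997 across genes. Limb mesenchyme markers (Prrx1, Prrx2, Twist1, Pdgfra, Hand2, Fgf10, Msx1) summed to 1925 to 2006 CPM in the ES–LBs, 1356 to 1416 CPM in the early LBs and 1626 to 1732 CPM in the E10.5 LBs, and all 7 were detected at 1 CPM or more in each of these groups. Blood markers summed to 2301 to 6791 CPM in the limb buds, 24307 to 35360 CPM in the heart, 5.48 to 8.69 CPM in the ES–FLB and 90.4 to 170 CPM in the ES–HLB. Differences were tested with limma on log2(scaled CPM + 0.5) over 14438 genes, with Benjamini-Hochberg adjusted p-values, and are given as log2 fold change ± SE. A gene was called at an adjusted p under 0.05. Replicates are separate samples by their labels. The p-values and SE measure the spread between them, estimated for each gene over all 9 groups together. They do not measure the spread of only the groups compared. For Dnmt3b, the heart libraries spread more widely (18.8 to 29.8 CPM) than those of any other group.

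Per kilobase of transcript, the maintenance pair was the most abundant. Group means ran from 68.3 to 164 scaled CPM per kb for Uhrf1 and from 55.7 to 87.4 for Dnmt1. Dnmt3a (16.2 to 44.0) came next in each group but the early FLB, with Tet3 (11.5 to 16.6) and Dnmt3b (5.57 to 21.3) below it. In the early FLB, Dnmt3b (21.3) lay above Dnmt3a (16.2). Tet1 (2.51 to 5.01) and Tet2 (1.76 to 6.20) were low, and Dnmt3l reached 3.31 in the ES–HLB and was at or near 0 in embryonic tissue. The spread of levels over the 9 groups was smallest for Tet3 (1.44-fold between the highest and the lowest group mean) and Dnmt1 (1.57-fold), and larger for Dnmt3b (3.82-fold) and Tet2 (3.52-fold). Among the 36 pairs of groups, Uhrf1 differed in 33, Dnmt3b in 30, Dnmt3a in 27 and Dnmt1 in 20.

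**Figure D1:**
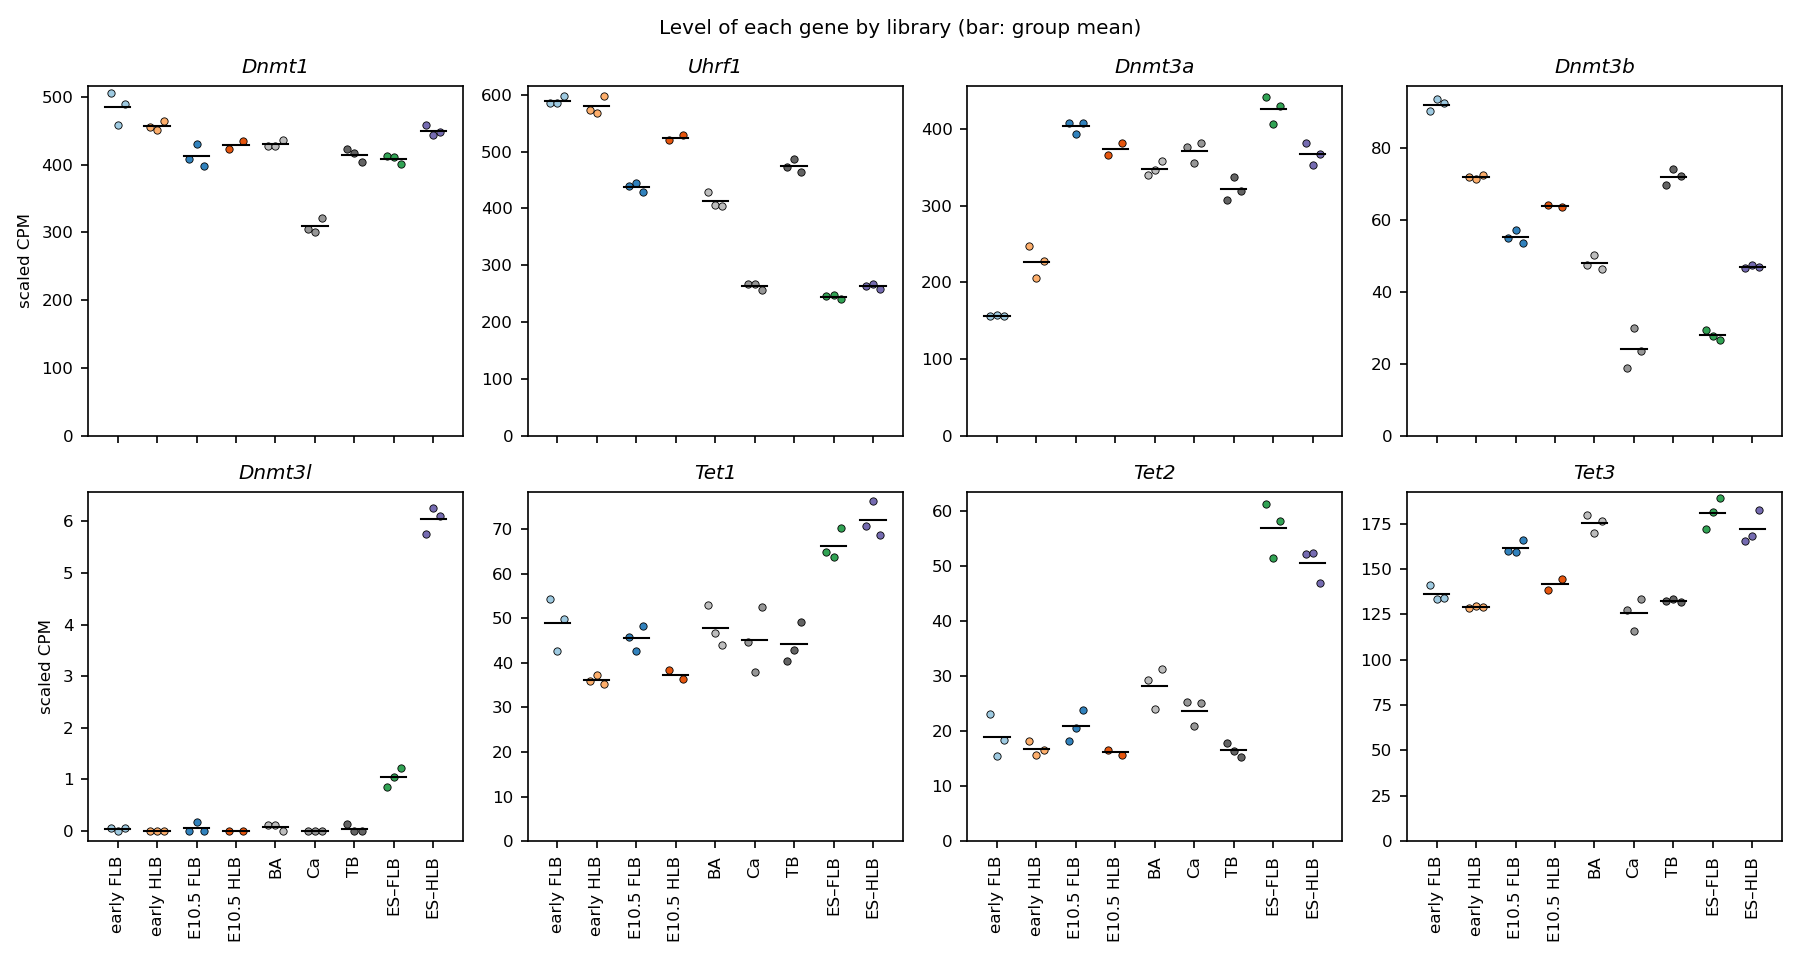
Scaled CPM of the 8 genes in each of 26 libraries, by group, on linear axes from 0; points are libraries and bars are group means. Dnmt3a runs from 156 to 442 CPM and Dnmt3b from 18.8 to 93.4 CPM, with the early FLB low for the former and high for the latter; Tet2 and Tet1 are higher in the 6 ES–LB libraries than in the 20 embryonic ones.

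The level of Dnmt1, the maintenance methyltransferase (chr9:20907206-20959888, minus strand, GRCm38), varied little outside the heart. Its scaled CPM was 506, 459 and 489 in the early FLB, 456, 451 and 465 in the early HLB, 408, 431 and 399 in the E10.5 FLB and 423 and 434 in the E10.5 HLB. The ES–FLB libraries had 413, 411 and 401, and the ES–HLB libraries 459, 444 and 448. The heart stood below the other groups at 305, 300.2 and 322, with no overlap, and BA (428, 428 and 437) and TB (422, 417 and 403) lay within the limb bud range. In order of level, the only neighbouring groups that differed were the ES–FLB and the heart (0.40 ± 0.04).

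Uhrf1, the cofactor that reads hemimethylated DNA (chr17:56303337-56323486, plus strand), had a wider range. It was at 586, 585 and 598 CPM in the early FLB and 574, 567 and 598 CPM in the early HLB. At E10.5 it was at 440.1, 445 and 429 CPM in the FLB and 520.1 and 530 CPM in the HLB. The ES–FLB had 246, 247 and 241 CPM and the ES–HLB 264, 267 and 258 CPM. The ES–HLB overlapped with the heart (267, 266 and 256 CPM), and the ES–FLB lay below it. Both lay below BA (430, 407 and 404 CPM) and TB (474, 488 and 465 CPM).

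Against the early FLB, Uhrf1 was lower in the ES–FLB by a log2 fold change of -1.27 ± 0.04 (adjusted p = 2.1e-24), while Dnmt1 differed by -0.25 ± 0.04 (adjusted p = 9.9e-07). Dnmt3l passed the filter on low values only through the ES–HLB libraries, so it is left out of the counts of members that follow. All of the 7 other members were called in this comparison, 4 higher and 3 lower, where 76.9% of all genes tested were called (38.9% higher and 38.0% lower). With the deposited CPM used without further scaling, the median of all genes in this comparison was 0.22, Dnmt1 was at -0.02 (adjusted p = 0.61) and Uhrf1 stayed lower. In the ES–HLB against the early HLB, Uhrf1 was at -1.14 ± 0.04 (adjusted p = 7.6e-23). Dnmt1 did not pass (-0.02 ± 0.04, adjusted p = 0.63), and its sign turned with the deposited CPM (0.15, adjusted p = 0.0016, where the median of all genes was 0.18). In that comparison 6 of the 7 were called, 4 higher and 2 lower, where 75.2% of all genes were called (38.5% higher and 36.8% lower). Against E10.5 limb buds, Uhrf1 was lower in the ES–FLB (-0.84 ± 0.04) and the ES–HLB (-0.995 ± 0.04), and Dnmt1 was at -0.02 ± 0.04 (adjusted p = 0.74) and 0.07 ± 0.04 (adjusted p = 0.14).

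Between the stages in vivo, Uhrf1 fell in the FLB (-0.43 ± 0.04, adjusted p = 5.1e-12) and in the HLB (-0.14 ± 0.04, adjusted p = 0.0061), where the call was lost without E10.5 replicate 1 (adjusted p = 0.066) or with the deposited CPM (adjusted p = 0.11). The fall was larger in the FLB, with a difference between limbs of 0.29 ± 0.05 (adjusted p = 2.3e-04). The early FLB was the younger by the study's figure legends, so a longer interval to E10.5 cannot be told apart from limb type. Dnmt1 fell in the FLB (-0.23 ± 0.04, adjusted p = 5.6e-06), a call lost with the deposited CPM (-0.06, adjusted p = 0.17), and did not pass in the HLB (-0.09 ± 0.04, adjusted p = 0.11).

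The ratio of Uhrf1 to Dnmt1, in CPM, was lower in vitro. It was 1.22 ± 0.059 (SD, n = 3) in the early FLB, 1.27 ± 0.016 in the early HLB, 1.06 ± 0.027 in the E10.5 FLB and 0.853 ± 0.050 in the heart. In the ES–FLB it was 0.600 ± 0.003 and in the ES–HLB 0.584 ± 0.015, below each of the embryonic libraries, whose lowest was 0.796.

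Both maintenance genes are known to be expressed with DNA replication, so they were set beside 18 replication genes (among them Mcm2 to Mcm7, Rrm1, Rrm2, Ccne1, Cdc6, Cdt1, Gins1, Pola1 and Rfc4). In the ES–FLB against the early FLB 18 of the 18 were lower (38.0% of all genes), with a median of -0.81 against 0.02 for all genes. In the ES–HLB against the early HLB 18 of 18 were lower (36.8% of all genes), with a median of -0.68 against 0.03. Between the stages, 15 of the 18 were lower (30.8% of all genes) and 0 higher in the FLB (median -0.36). In the HLB 6 were lower (16.3% of all genes) and 1 higher (median -0.14). Relative to the mean of these genes, Uhrf1 was at 1.24 ± 0.044 (SD, log2) in the ES–FLB and 1.27 ± 0.036 in the ES–HLB, against 1.66 ± 0.023 in the early FLB and 1.21 ± 0.012 in the heart. Dnmt1 went the other way. It was 1.98 ± 0.049 above the replication genes in the ES–FLB and 2.04 ± 0.0043 in the ES–HLB, against 1.37 ± 0.091 in the early FLB and 1.30 ± 0.030 in the early HLB. The difference was 0.61 for the forelimb pair and 0.74 for the hindlimb pair, with no overlap, and the two-sided exact permutation test gave p = 0.1 in each, the smallest value that 3 against 3 libraries allow. The Dnmt1 level stood higher against replication genes in vitro by 1.52-fold and 1.67-fold.

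**Figure D2:**
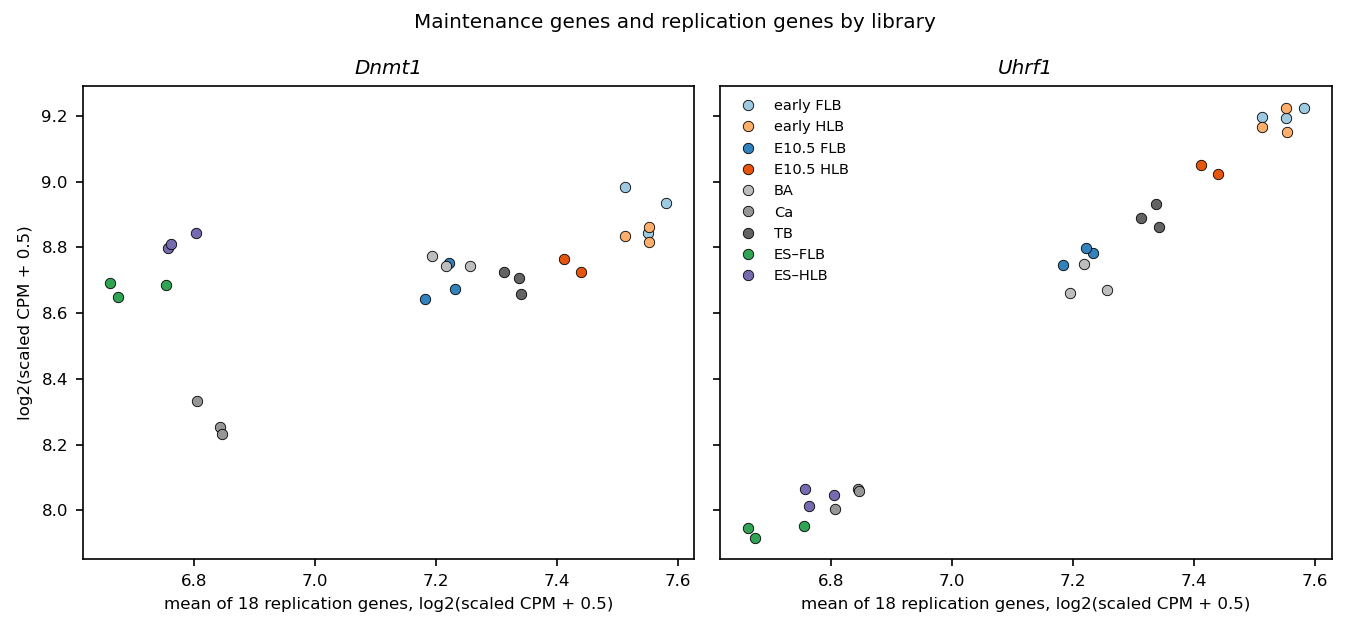
Dnmt1 and Uhrf1 (log2 of scaled CPM + 0.5) against the mean of 18 replication genes on the same scale, with 1 point for each of 26 libraries. The ES–LB libraries lie at the low end of the replication axis, near 6.70 and 6.77, where Dnmt1 is still near its embryonic limb bud level and Uhrf1 is near the level of the heart.

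Dnmt3a, a de novo methyltransferase (chr12:3801559-3914443, plus strand), was the member that changed most with stage in the limb. Its scaled CPM was 156, 157 and 156 in the early FLB and 247, 206 and 228 in the early HLB. At E10.5 it was 408, 394 and 408 in the FLB and 366 and 382 in the HLB. The stages did not overlap in either limb. Sequencing depth differed between the stages, and its part was not tested.

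From the early stage to E10.5, Dnmt3a rose in the FLB by 1.36 ± 0.05 (adjusted p = 2.4e-20) and in the HLB by 0.72 ± 0.06 (adjusted p = 2e-11). In the FLB 5 members were called, 2 higher and 3 lower, where 59.1% of all genes were called (28.3% higher and 30.8% lower), and in the HLB 2 members, 1 in each direction, where 28.9% were called (12.6% higher and 16.3% lower). The rise was larger in the FLB, with a difference between limbs of -0.64 ± 0.07 (adjusted p = 2.4e-07). By the study's figure legends the early FLB was the younger, so the interval to E10.5 may be longer in the FLB. That cannot be told apart from limb type. The ES–FLB libraries had 442, 407 and 431 CPM and the ES–HLB libraries 381, 353 and 368 CPM, of which 3 of 6 libraries lay within the E10.5 limb bud range of 366 to 408 CPM. Dnmt3a was higher than in early limb buds (1.44 ± 0.05 for the ES–FLB, 0.70 ± 0.05 for the ES–HLB), and against E10.5 it did not pass in the FLB (0.08 ± 0.05, adjusted p = 0.15) or the HLB (-0.03 ± 0.06, adjusted p = 0.7). BA (340, 346 and 358 CPM), the heart (376, 355 and 382 CPM) and TB (307, 338 and 319 CPM) lay below the E10.5 FLB libraries.

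Dnmt3b, the other de novo methyltransferase (chr2:153649411-153687730, plus strand), had the opposite order. It was at 90.1, 93.4 and 92.4 CPM in the early FLB, 71.8, 71.4 and 72.3 CPM in the early HLB, 54.9, 57.2 and 53.5 CPM in the E10.5 FLB and 64.0 and 63.5 CPM in the E10.5 HLB. The ES–FLB had 29.2, 27.8 and 26.6 CPM and the ES–HLB 46.5, 47.3 and 46.8 CPM. The lowest libraries were those of the heart (18.8, 29.8 and 23.5 CPM), which overlapped with the ES–FLB, while TB (69.6, 73.9 and 72.1 CPM) was level with the early HLB and BA stood at 47.4, 50.3 and 46.4 CPM.

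Dnmt3b fell from the early to the E10.5 FLB by 0.73 ± 0.09 on the log2 scale (adjusted p = 1.3e-08), and in the HLB its difference did not pass (-0.17 ± 0.10, adjusted p = 0.19). The difference between the limbs was 0.56 ± 0.13 (adjusted p = 0.0023), where limb type and a longer interval in the FLB cannot be told apart. Dnmt3b was lower in the ES–FLB than in the early FLB (-1.71 ± 0.09, adjusted p = 7.1e-18) and the E10.5 FLB (-0.97 ± 0.09). In the ES–HLB it was lower than in the early HLB (-0.61 ± 0.09, adjusted p = 1.8e-07) and the E10.5 HLB (-0.44 ± 0.10, adjusted p = 1.9e-04). In bulk libraries, fewer cells of a type and less RNA per cell cannot be told apart, and the blood, vessel and ectoderm cells of the embryonic tissue belong to that. Endothelial markers summed to 255 to 356 CPM in the limb buds and 23.1 to 39.7 CPM in the ES–LBs, with 5 of 5 lower in each ES–LB against its early limb bud, and surface ectoderm markers to 237 to 414 CPM and 95.5 to 197 CPM, with 5 of 6 lower in the ES–FLB and 3 of 6 in the ES–HLB. All of the 7 blood markers were lower in both. Of all genes, 38.0% were lower in the ES–FLB and 36.8% in the ES–HLB. The part of these cell types in these results was not tested.

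The balance of both de novo enzymes gathered these changes into a single value. That value was taken from CPM, which is not divided by transcript length (9.69 kb for Dnmt3a, 4.32 kb for Dnmt3b). It therefore compares groups and does not rank both genes. Per kilobase, Dnmt3b (21.3) lay above Dnmt3a (16.2) in the early FLB and below it in the other groups. The ratio of Dnmt3a to Dnmt3b, in CPM, was 1.70 ± 0.028 (SD, n = 3) in the early FLB and 3.16 ± 0.283 in the early HLB. At E10.5 it was 7.32 ± 0.384 in the FLB, 5.87 ± 0.217 (n = 2) in the HLB, 7.26 ± 0.417 in BA, 4.47 ± 0.088 in TB and 16.1 ± 4.07 in the heart. In the ES–FLB it was 15.3 ± 0.794 and in the ES–HLB 7.84 ± 0.370. The ES–FLB ratio was 9.00-fold that of the early FLB (3.17 on the log2 scale) and the ES–HLB ratio 2.49-fold that of the early HLB (1.32), without overlap, and each two-sided exact permutation test gave p = 0.1, the smallest value possible. The heart and the ES–FLB overlapped, and the heart libraries themselves ran from 11.9 to 20.03.

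**Figure D3:**
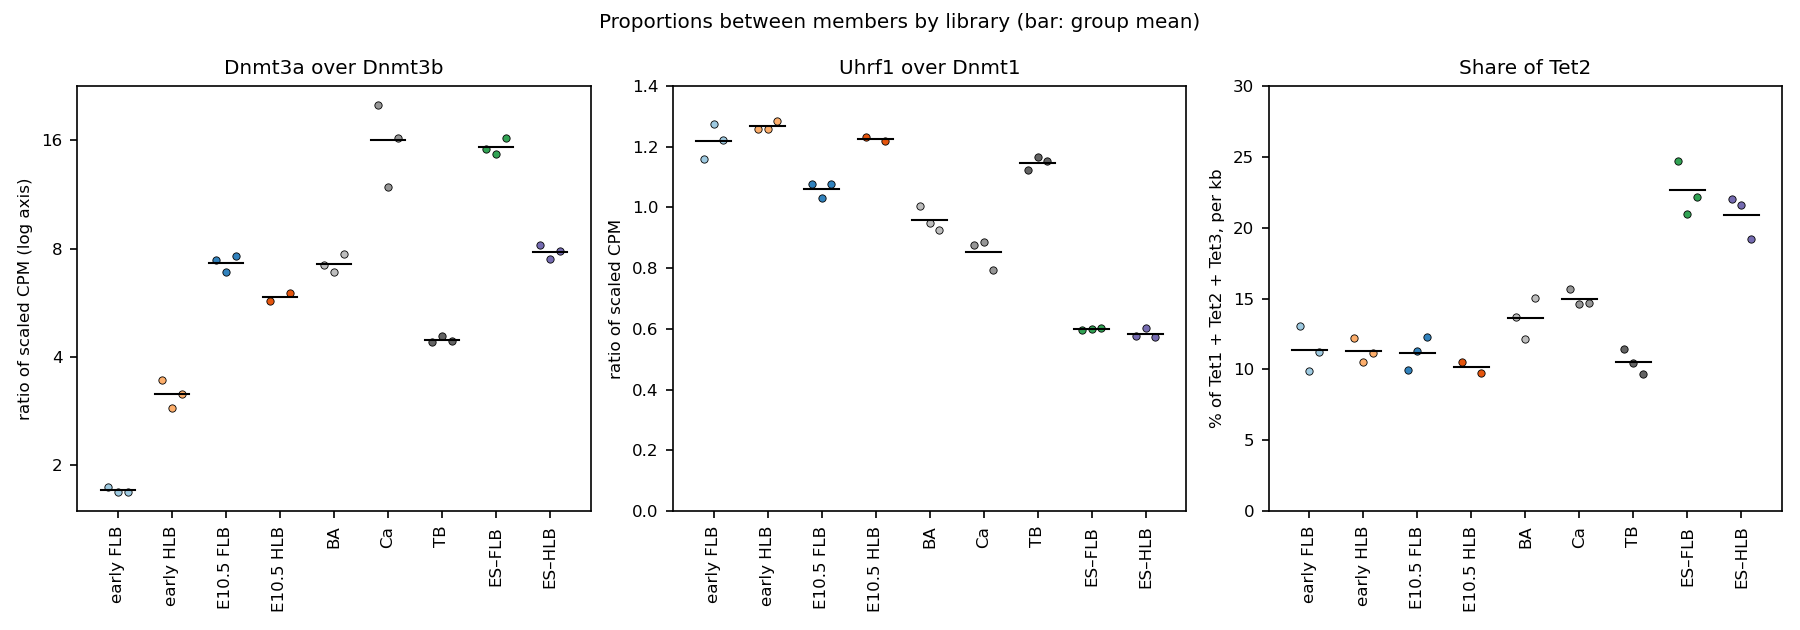
Proportions in each of 26 libraries with group means. They are Dnmt3a over Dnmt3b (log axis) and Uhrf1 over Dnmt1, both in CPM not divided by length. The third is the share of Tet2 in the summed TET level per kilobase, in percent. The first rises from 1.70 in the early FLB to 15.3 in the ES–FLB, the second is near 0.6 in the ES–LBs, and the third is 22.6% and 20.9% in the ES–LBs against 10.2% to 14.98% in embryonic groups.

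Dnmt3l, the cofactor without catalytic activity (chr10:78042287-78063622, plus strand), was nearly absent from the embryo. It had 6 reads in all 20 embryonic libraries: 2 in the early FLB, 1 in the E10.5 FLB, 2 in BA, 1 in TB and 0 in the early HLB, E10.5 HLB and heart. The ES–FLB libraries had 7, 8 and 10 reads (0.851, 1.04 and 1.22 CPM) and the ES–HLB libraries 45, 44 and 51 reads (5.75, 6.27 and 6.11 CPM). No ES–LB library overlapped with an embryonic one, and the ES–HLB libraries lay above the ES–FLB libraries. It passed the filter on low values (1 CPM in 3 libraries) only through the ES–HLB, since the ES–FLB had 2 libraries at that level, so no test is drawn from its calls.

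With a floor of 3 reads per library, Dnmt3l was at least 36.9-fold higher in the ES–HLB than in the early HLB, and at least 11.1-fold higher than in the E10.5 HLB. For the forelimb, where the early FLB had 2 reads, the ratio was 30.5 (95% exact counting interval 7.61 to 266). The ES–HLB to ES–FLB ratio of reads was 5.82 (3.79 to 9.31). These intervals cover counting error only. The gene overlaps with Aire on the opposite strand over 1664 bases, and Aire was listed at no more than 0.761 CPM. Whether counting used the strand is not stated.

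Markers of pluripotent cells, summed, were also highest in the ES–LBs. The 10 fixed markers (Pou5f1, Nanog, Zfp42, Esrrb, Klf4, Tdgf1, Dppa5a, Utf1, Fgf4, Sox2) summed to 123 to 128 CPM in the ES–FLB and 136 to 172 CPM in the ES–HLB. They summed to 3.02 to 10.6 CPM in the limb buds, 23.4 to 29.1 CPM in BA and 24.6 to 30.4 CPM in the heart. TB, with 1 read of Dnmt3l, had 70.2 to 73.4 CPM. Between the ES–HLB and the ES–FLB 9 of the 10 were higher (11.2% of all genes). Klf4 was lower (37.6 against 94.0 CPM), as were 8.69% of all genes. The mean sums there were 157 and 125 CPM, so Klf4 made up most of the ES–FLB sum. Pou5f1 was at 17.0 ± 4.13 CPM in the ES–HLB and 4.11 ± 1.36 CPM in the ES–FLB, and Nanog at 9.11 ± 2.32 and 2.52 ± 0.785 CPM (SD, n = 3). In the E10.5 HLB Pou5f1 and Nanog were at 0. The part of these cells in the Dnmt3l result was not tested. The genes with the pattern most like Dnmt3l over the 26 libraries were Tdgf1 (Pearson r = 0.982), Otx2 and Trh. Each had a lowest group mean of 0 CPM and entered the search by reaching 5 CPM in its highest group. For a gene near 0 in the embryo, such an r follows largely from that split. Tdgf1 is also on the marker list, so no support is drawn from this likeness.

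Tet2, an oxidase of 5-methylcytosine (chr3:133463677-133545136, minus strand), had the largest difference of the erasers between culture and embryo. It was at 61.2, 51.4 and 58.1 CPM in the ES–FLB and 52.1, 52.4 and 46.9 CPM in the ES–HLB. Over the 20 embryonic libraries it ran from 15.3 to 31.2 CPM with a median of 18.3 CPM, so no embryonic library reached the ES–LBs. Of the embryonic groups, BA (29.3, 23.9 and 31.2 CPM) and the heart (25.2, 20.8 and 25.1 CPM) were the highest.

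Tet2 was higher in the ES–FLB than in the early FLB by 1.58 ± 0.12 (adjusted p = 2.8e-13) and in the ES–HLB than in the early HLB by 1.56 ± 0.12 (adjusted p = 4.5e-13), and the difference between these effects was -0.02 ± 0.17 (adjusted p = 0.96). It was also higher against the E10.5 FLB (1.43 ± 0.12) and the E10.5 HLB (1.61 ± 0.13). Its share of the summed TET level per kilobase was 22.6% ± 1.91 in the ES–FLB and 20.9% ± 1.52 in the ES–HLB, against 11.4% ± 1.58 in the early FLB and 14.98% ± 0.582 in the heart.

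Tet1, an oxidase with a CXXC domain that binds CpG-rich DNA (chr10:62804570-62887469, minus strand), was higher in vitro by a smaller factor. It was at 65.0, 63.6 and 70.3 CPM in the ES–FLB and 70.8, 76.3 and 68.7 CPM in the ES–HLB, and from 35.2 to 54.3 CPM in the 20 embryonic libraries, again without overlap. The difference was 0.44 ± 0.09 (adjusted p = 1.1e-04) against the early FLB and 0.98 ± 0.09 (adjusted p = 9.8e-11) against the early HLB. Against E10.5 it was 0.54 ± 0.09 for the ES–FLB and 0.94 ± 0.11 for the ES–HLB.

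Tet3, the most abundant eraser per kilobase (chr6:83362373-83457208, minus strand), varied least. It was at 172, 182 and 189 CPM in the ES–FLB and 166, 168 and 183 CPM in the ES–HLB, and at 141, 134 and 134 CPM in the early FLB and 128, 129 and 129 CPM in the early HLB. The ES–LBs overlapped with BA (180, 170 and 177 CPM). The difference was 0.41 ± 0.05 for both limb types against the early stage (adjusted p = 8.9e-09 and 6.3e-09), and 0.16 ± 0.05 (adjusted p = 0.0052) and 0.28 ± 0.06 (adjusted p = 4.6e-05) against E10.5. In the FLB, Tet3 rose from the early stage to E10.5 by 0.25 ± 0.05 (adjusted p = 8.4e-05). The gene overlaps with B230319C09Rik on the opposite strand, which was listed at no more than 0.234 CPM.

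Transcript length moved with these differences. The 3 TET genes have long transcripts (14.4 kb for Tet1, 9.18 kb for Tet2 and 10.9 kb for Tet3). The 662 tested genes of 8 to 16 kb had a median log2 fold change of 0.38 in the ES–FLB against the early FLB and 0.48 in the ES–HLB against the early HLB, with 62.5% and 64.7% of them called higher, and the 3038 genes under 2 kb had medians of -0.22 and -0.24. The Tet3 values and the Tet1 value in the forelimb pair were near the medians of the long genes, and Tet2 was above them in both pairs. Dnmt3a is also long, at 9.69 kb. The part of length in these results was not tested.

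**Figure D4:**
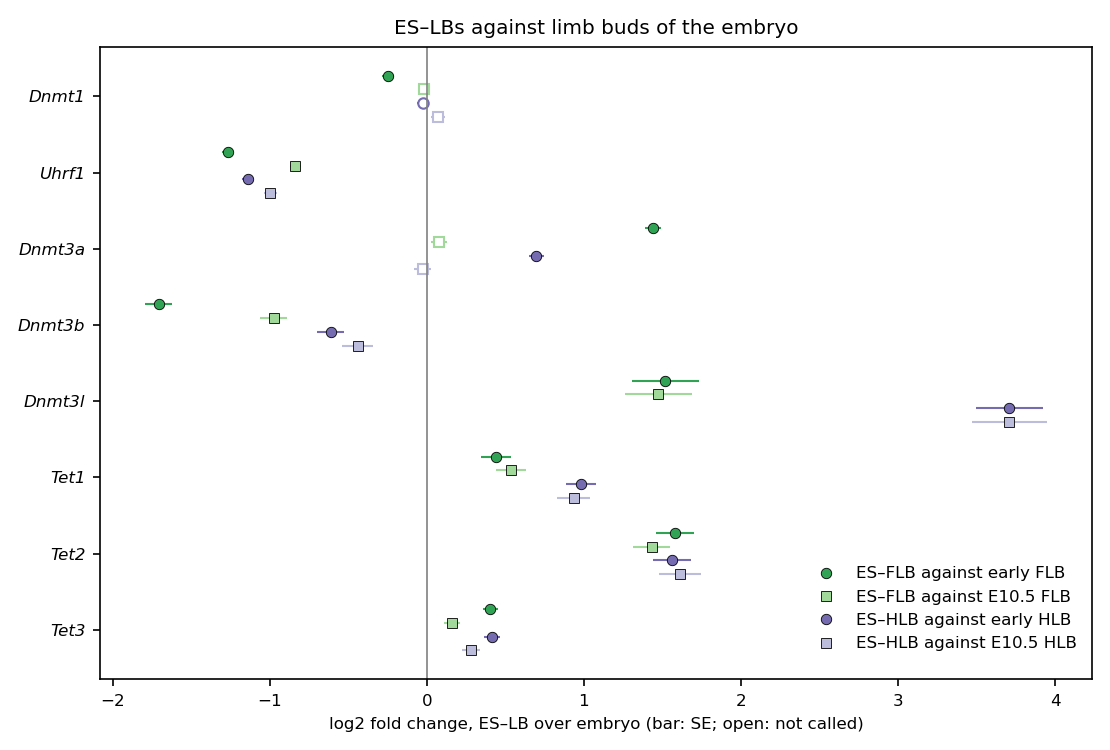
Log2 fold change ± SE of each gene in the ES–FLB and the ES–HLB against early and E10.5 limb buds of the same type; open symbols were not called. Tet2 is near 1.5 in the 4 comparisons and Uhrf1 lies between -1.27 and -0.84, whereas Dnmt3a is 1.44 and 0.70 against the early buds and near 0 against E10.5; the Dnmt3l values are fitted against groups at or near 0 and depend on the pseudocount.

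Against E10.5 limb buds 5 of the 7 members other than Dnmt3l were called for each ES–LB, where 68.8% of all genes were called for the FLB and 68.7% for the HLB. These 2 comparisons share the ES–LB libraries with those against the early stage, so they are not independent of them.

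Limb type was compared next, at each stage in vivo and in vitro. In the early limb buds 3 members were called, 1 higher and 2 lower in the HLB, where 18.9% of all genes were called (8.55% higher and 10.4% lower). Dnmt3a was higher in the HLB (0.53 ± 0.05, adjusted p = 1.4e-09), and Dnmt3b (-0.35 ± 0.09, adjusted p = 0.0033) and Tet1 (-0.43 ± 0.09, adjusted p = 0.0013) were lower, each without overlap. Tet1 had 54.3, 42.6 and 49.8 CPM in the early FLB and 35.9, 37.2 and 35.2 CPM in the early HLB. The 662 long genes had a median of -0.14 in this comparison.

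At E10.5, 2 members were called, 1 in each direction, where 20.9% of all genes were called (9.92% higher and 11.0% lower). Uhrf1 was higher in the HLB (0.26 ± 0.04, adjusted p = 1.8e-05). Tet3 was lower (-0.19 ± 0.06, adjusted p = 0.014; 160, 159 and 166 CPM in the FLB against 139 and 145 CPM in the HLB), but it lost the call without FLB replicate 3 (adjusted p = 0.057) or HLB replicate 1 (adjusted p = 0.15). Dnmt3a (-0.11 ± 0.06, adjusted p = 0.17) and Dnmt3b (0.21 ± 0.10, adjusted p = 0.13) did not pass.

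In vitro, 4 of the 7 members other than Dnmt3l were called, 3 higher and 1 lower in the ES–HLB, where 19.9% of all genes were called (11.2% higher and 8.69% lower). Dnmt3b was higher by 0.74 ± 0.09 (adjusted p = 9.1e-08) and Dnmt3a lower by a difference of -0.21 ± 0.05 (adjusted p = 0.0018). Both signs are the reverse of those in the early limb buds, which may differ in stage. They are the same as at E10.5, where neither difference passed (0.21 ± 0.10 for Dnmt3b and -0.11 ± 0.06 for Dnmt3a). Dnmt1 was higher by 0.14 ± 0.04 (adjusted p = 0.0079). Uhrf1 was higher by 0.10 ± 0.04 (adjusted p = 0.037), and the call was lost when any of ES–FLB replicates 1, 2 and 3 or ES–HLB replicates 1 and 2 was left out (adjusted p = 0.063 to 0.13). Tet1 (0.12 ± 0.09, adjusted p = 0.45), Tet2 (-0.17 ± 0.12, adjusted p = 0.37) and Tet3 (-0.07 ± 0.05, adjusted p = 0.37) did not pass. The difference between limb types in vitro was tested against that in the early limb buds, where 20.0% of all genes were called and 4 of these 7 members were: Dnmt3a (-0.74 ± 0.07), Dnmt3b (1.10 ± 0.12), Tet1 (0.54 ± 0.13) and Dnmt1 (0.23 ± 0.05).

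**Figure D5:**
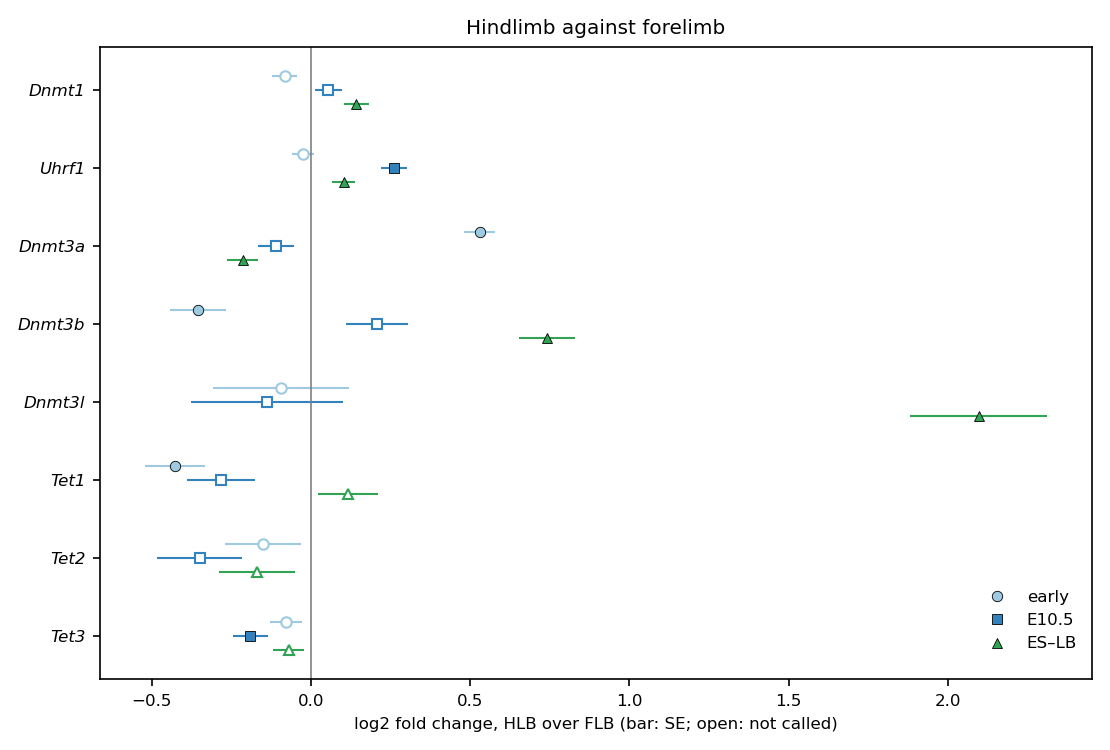
Log2 fold change ± SE of hindlimb against forelimb for each gene in early limb buds, E10.5 limb buds and ES–LBs; open symbols were not called. Dnmt3a is at 0.53 in the early buds, -0.11 at E10.5 (not called) and -0.21 in vitro. Dnmt3b is at -0.35, 0.21 (not called) and 0.74. The early FLB and HLB may differ in stage.

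The E10.5 limb buds of both types were then set against the other E10.5 tissues. Against the heart 5 members were called, where 76.8% of all 14438 genes tested were called (5603 higher and 5485 lower in the limb buds). Dnmt3b (1.31 ± 0.08), Uhrf1 (0.86 ± 0.03), Dnmt1 (0.44 ± 0.03) and Tet3 (0.27 ± 0.04) were higher in the limb buds, and Tet2 was lower (-0.36 ± 0.11, adjusted p = 0.0034), though the FLB taken alone did not pass for Tet2 (adjusted p = 0.16). Heart muscle markers summed to 20996 to 25168 CPM in the heart and to no more than 96.6 CPM elsewhere, 7 of 7 were lower in the limb buds, and blood markers were also highest in the heart. Their part was not tested. Against BA 5 members were called, where 32.7% were called, among them Tet2 (-0.60 ± 0.11) and Tet3 (-0.21 ± 0.04) lower and Uhrf1 (0.21 ± 0.03), Dnmt3b (0.30 ± 0.08) and Dnmt3a (0.16 ± 0.04) higher in the limb buds. The Dnmt3a call was lost with the deposited CPM (adjusted p = 0.064). Taken alone, the E10.5 FLB did not pass against BA for Uhrf1 (adjusted p = 0.099), Dnmt3b (adjusted p = 0.11) or Tet3 (adjusted p = 0.099), and the E10.5 HLB did not pass for Dnmt3a (adjusted p = 0.15), whereas Tet2 passed in each limb. Against TB 3 members were called, where 46.0% were called: Dnmt3a (0.27 ± 0.04) and Tet3 (0.19 ± 0.04) were higher in the limb buds and Dnmt3b lower (-0.27 ± 0.08, adjusted p = 0.0045). Taken alone, the HLB did not pass for Tet3 (adjusted p = 0.19) or Dnmt3b (adjusted p = 0.17). Uhrf1 was lower than in TB in the FLB (-0.12 ± 0.04, adjusted p = 0.0068) and higher in the HLB (0.14 ± 0.04, adjusted p = 0.0045), and did not pass for both limbs joined (0.01 ± 0.03, adjusted p = 0.79).

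The ES–LBs as 1 set differed from BA in 5 members other than Dnmt3l, from the heart in 6 and from TB in 6, where 69.6%, 81.0% and 76.2% of all genes were called. Tet2 was higher than in BA (0.92 ± 0.10), the heart (1.16 ± 0.10) and TB (1.67 ± 0.10). Uhrf1 was lower than in BA (-0.70 ± 0.03) and TB (-0.90 ± 0.03). Against the heart Uhrf1 did not pass (-0.05 ± 0.03, adjusted p = 0.11), and its sign turned with the deposited CPM (0.12, adjusted p = 5.3e-04, where the median of all genes was 0.20). Taken alone, the ES–FLB was lower than the heart (heart minus ES–FLB 0.10 ± 0.04, adjusted p = 0.0087), and the ES–HLB did not pass (adjusted p = 0.98).

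Partners of the writers were counted from a list of 14 genes. In the ES–FLB against the early FLB 3 were higher and 8 lower (median -0.35, against 0.02 for all genes), and in the ES–HLB against the early HLB 3 were higher and 7 lower (median -0.22, against 0.03). Of all genes, 38.9% were higher and 38.0% lower in the former, and 38.5% and 36.8% in the latter. Hells, a remodeller needed for normal DNA methylation, was at -1.43 ± 0.06 and -1.15 ± 0.06. Cdca7, its partner, was at -1.31 ± 0.05 and -1.29 ± 0.05. Zfp57, which keeps methylation at imprinted regions, was higher (1.67 ± 0.12 and 1.32 ± 0.12). In the E10.5 limb buds against the heart 12 of the 14 were higher and 0 lower (median 0.69), led by Cdca7 (1.74 ± 0.04). Of all 14438 genes tested there, 76.8% were called, 5603 higher and 5485 lower.

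The base excision list of 13 genes, which finishes removal after TET oxidation, had 3 higher and 8 lower in each ES–LB against its early limb bud (medians -0.38 and -0.34). Of all genes, 38.9% were higher and 38.0% lower for the ES–FLB, and 38.5% and 36.8% for the ES–HLB. Tdg, the glycosylase that cuts out oxidised 5-methylcytosine, was lower in the ES–HLB (-0.97 ± 0.11). Ung, which removes uracil, was lower in both (-1.29 ± 0.08 and -1.002 ± 0.08), and Gadd45g, a stress and differentiation gene that has been tied to demethylation, was higher (2.56 ± 0.18 and 2.63 ± 0.18).

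Of 9 tested genes on the list of TET cofactor supply and regulators, 3 were higher and 4 lower in the ES–FLB, and 2 and 5 in the ES–HLB. The shares of all genes were 38.9% higher and 38.0% lower for the ES–FLB, and 38.5% and 36.8% for the ES–HLB. Ogt, the O-GlcNAc transferase that binds TET proteins, was higher (1.11 ± 0.09 and 1.27 ± 0.09), and Cxxc5 was lower (-2.12 ± 0.07 and -1.38 ± 0.07). Cxxc4, a gene beside Tet2 on the chromosome whose product binds it, was higher in the ES–FLB (2.31 ± 0.20) and lower in the ES–HLB than in the ES–FLB (-1.05 ± 0.20).

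Genes of the methyl donor cycle, which supplies S-adenosylmethionine, were mostly lower in vitro. Of 11 tested, 9 were lower and 1 higher in the ES–FLB (median -0.88), where 38.0% of all genes were lower. In the ES–HLB 8 were lower and 2 higher (median -0.53), where 36.8% were lower. Mthfd1, a folate enzyme, was at -1.57 ± 0.06 and -1.21 ± 0.06. Mat2a, which makes S-adenosylmethionine, was at -0.90 ± 0.04 and -0.57 ± 0.04. Between the stages in vivo, 7 of the 11 were lower and 1 higher in the FLB (median -0.24), where 30.8% of all genes were lower, and 4 were lower and 0 higher in the HLB (median -0.11), where 16.3% were lower.

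Methyl-CpG readers, the proteins that bind the mark, had 4 higher and 1 lower of 9 in the ES–FLB (median 0.14) and 6 higher and 1 lower in the ES–HLB (median 0.37). Of all genes, 38.9% were higher and 38.0% lower for the ES–FLB, and 38.5% and 36.8% for the ES–HLB. Zbtb4, a zinc finger reader, was higher by 2.94 ± 0.15 and 3.08 ± 0.15, and Mbd5 by 0.93 ± 0.12 and 0.86 ± 0.12. Of 16 germline genes whose promoters are known targets of DNA methylation, 8 passed the filter on low values; since a gene listed at 0 in most groups could pass only where it was high, no summary is drawn from their 5 and 6 higher calls. Brdt alone among them reached 5 CPM, at 10.3 ± 0.889 CPM in the ES–FLB and 6.27 ± 0.383 CPM in the ES–HLB, against 0.880 ± 0.273 CPM in the early FLB and 1.02 ± 0.113 CPM in the early HLB.

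The genes most like each member across the 26 libraries were taken from 12387 genes by Pearson r, as a description. Uhrf1 was most like Hmgn1 (0.990), Pcna (0.990) and Eftud2 (0.989), of which Pcna is the replication clamp. Dnmt1 was most like Scaf4 (0.963) and Safb (0.962), neither of which is on the replication list. Dnmt3a was most like Tgfb3 (0.976), Dnmt3b like Ttll4 (0.967), Tet1 like Mycbp2 (0.959) and Tet3 like Kctd1 (0.959). Among the members, Uhrf1 and Dnmt3b (0.887) and Tet1 and Tet2 (0.884) had the highest r, and Uhrf1 and Tet2 the lowest (-0.823). The points share libraries, depth and tissue.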

How the data were processed

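RNA was measured in 27 libraries of 9 groups. Per the labels, libraries were made with the TruSeq Stranded mRNA kit. The authors aligned single-end reads to mm10 with HISAT2 2.0.4 after FastQC 0.11.5, counted them with Cuffdiff (the submitters' processing notes list Cufflinks 2.1.1) and deposited read counts scaled to CPM from edgeR 3.16.2; each deposited CPM column sums to 1000000. Strand use in counting is not given in the sources used here. Low values were whole multiples of 1 read for 94.3% to 99.3% of genes per library (tolerance 0.02 reads), and the rest were fractional, so no count test was run.

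The library labelled E10.5 HLB replicate 2 was left out (13642 genes at 0). CPM was rescaled by trimmed means of log ratios (30% and 5% trimmed; factors 0.904 to 1.069). Genes at 1 CPM or more in 3 libraries were tested in 1 limma 3.58.1 model (R 4.3.3, trend and robust, 26 libraries), with p-values adjusted over 14438 genes. Ratios were compared by exact permutation tests (scipy 1.17.1). Scripts were tested on simulated data. Reads per library were 5543755 to 22142227, and counting intervals cover counting error only.

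The members and gene lists were chosen with earlier results of these data known. Of each list, at most 4 called genes at 5 CPM or more with the largest changes were named. Some genes of the lists and of the likeness search are not reported here by name. Lengths and positions came from GENCODE (GRCm38), and 88.0% of genes tested had a length. Alternatives were other scalings, filters, pseudocounts (0.1, 2), samples, variance models, a 0.001 threshold, the replicate number as a block, the left-out library and each library left out. Replicate numbers did not pair samples.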

Additional observations from a re-analysis of the deposited data

Results flagged for a closer look

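The limb type difference (hindlimb minus forelimb) was compared between the ES–LBs and the early limb buds by an interaction term in limma. It differed for 4 members besides Dnmt3l, where 20.0% of all genes were called. It differed by 0.23 for Dnmt1 (SE 0.05, adjusted p = 0.0031), -0.74 for Dnmt3a (SE 0.07, adjusted p = 2.3e-09), 1.10 for Dnmt3b (SE 0.12, adjusted p = 5.8e-08), 2.19 for Dnmt3l and 0.54 for Tet1 (SE 0.13, adjusted p = 0.0036) on the log2 scale. The Dnmt3l value is a fitted one against 2 and 0 reads and depends on the pseudocount, and since the gene passed the filter on low values only through the ES–HLB, its call follows from the filter. The early FLB and HLB may differ in stage, which cannot be told apart from limb type.

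The stage difference (E10.5 minus early) differed between hindlimb and forelimb for 3 members, where 20.6% of all genes were called: 0.29 for Uhrf1 (SE 0.05, adjusted p = 2.3e-04), -0.64 for Dnmt3a (SE 0.07, adjusted p = 2.4e-07) and 0.56 for Dnmt3b (SE 0.13, adjusted p = 0.0023). The E10.5 HLB had 2 libraries in this fit. By the study's figure legends the early FLB was younger than the early HLB, so the interval to E10.5 may be longer in the FLB. An unequal interval cannot be told apart from limb type here.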

How the results depend on the processing

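Counts of calls here include Dnmt3l. Of 85 calls over 17 comparisons, 67 were kept under each alternative run and 18 were lost in at least 1. The deposited CPM without rescaling moved the median of all genes to as much as 0.22 and the share of higher among called genes by over 10 points in 9 comparisons: from 45.1% to 60.8% (early HLB against FLB), 47.4% to 28.5% (E10.5 HLB against FLB), 47.9% to 66.6% and 43.5% to 58.4% (E10.5 against early FLB and HLB), 50.6% to 62.7% and 51.1% to 61.3% (ES–FLB and ES–HLB against early), 47.8% to 35.1% (E10.5 limb buds against BA), 57.2% to 44.8% and 51.7% to 26.3% (limb type and stage interactions). It turned Dnmt1 in the ES–HLB against the early HLB (0.15) and Uhrf1 in the ES–LBs against the heart (0.12), and ended the Dnmt1 call in the E10.5 against the early FLB (-0.06, adjusted p = 0.17) and the Uhrf1 call in the HLB between stages (adjusted p = 0.11), which was also lost without E10.5 HLB replicate 1 (adjusted p = 0.066). Dnmt3a in the ES–LBs against the heart (0.09, adjusted p = 0.047) lost its call under 11 alternatives, with adjusted p = 0.059 to 0.26 where the threshold was not itself changed.

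Members called in the E10.5 HLB against the FLB numbered 5 with the deposited CPM, 5 with the libraries of those groups only and 4 with the left-out library added back, and 1 to 3 when single libraries were left out (all genes 1423 to 2630; 1423 without HLB replicate 1). With the replicate block, which the labels' numbers did not support (correlations of same-numbered deviations -0.0888 to 0.126), 4 were called there, with Tet1 (-0.31) and Tet2 (-0.40) gained; the block ended no call of a member. In the E10.5 against the early HLB, 4 members were called with the left-out library and 1 to 2 when single libraries were left out. At a threshold of 0.001, members called were 1, 1, 2, 1 and 3 (early, E10.5 and in vitro limb type, HLB stage, BA) and 3 (limb type interaction), and genes called were 968, 712, 1010, 5624 (FLB stage), 1575, 1929, 3628 (TB), 949 and 748 (stage interaction). The log2 Dnmt3a to Dnmt3b ratio of the forelimb pair was 3.09 with a pseudocount of 2, and Dnmt1 relative to the median replication gene was 0.78 and 0.92. The cause was not tested. The count tests (edgeR, DESeq2) were not run, since the values are not whole reads for each gene. Dnmt3l, with 6 embryonic reads, is the member whose values depth limits most.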

Other observations

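Dppa3, whose product removes UHRF1 from chromatin in oocytes and early embryos, was below the level set for naming list genes and was chosen after its values were seen. It was at 0.625 ± 0.147 CPM in the ES–FLB and 2.19 ± 0.711 CPM in the ES–HLB (SD, n = 3), and at no more than 0.125 CPM in any embryonic library.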
